A study of Mus musculus with 4 samples.

Results

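The 5 genes described here, Slc12a1, Kcnj1, Bsnd, Casr and Kcnj16, encode proteins of salt and divalent cation handling in the thick ascending limb, the nephron segment that climbs from the medulla to the cortex. They were taken by gene symbol from the 32285 genes listed for each section, and all 5 passed the filter on low counts, which left 15305 genes for whole sections and 14249 for zones. Their levels were measured in 4 spatial transcriptomic sections of the left kidney of male wild-type (WT) C57BL/6J mice aged 7 to 8 weeks, cut at 10 µm. Of these sections, 2 were normal controls, for which no sham surgery is stated, and 2 were taken 24 h after both renal pedicles had been clamped for 30 min (ischemic). Visium captures polyadenylated RNA on barcoded spots, each spanning several cells, and counts molecules by unique molecular identifiers (UMIs). The sources used here do not tie sections to mice, and the methods describe technical replicates, so that p-values measure the spread between sections, which may be technical. All 4 sections lay on 1 slide in separate capture areas, and capture area and condition cannot be told apart.

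The thick limb reabsorbs salt without water and so dilutes the tubular fluid. Slc12a1 encodes the apical sodium, potassium and chloride cotransporter that loop diuretics block. Kcnj1 encodes the apical potassium channel that returns potassium to the lumen and keeps the cotransporter supplied, and Bsnd encodes barttin, an accessory subunit of basolateral chloride exit. Kcnj16 encodes a basolateral potassium channel subunit that pairs with the product of Kcnj10, and Casr encodes the calcium-sensing receptor, which restrains salt and calcium uptake in this segment. Loss of Slc12a1, Kcnj1 or Bsnd function causes forms of Bartter syndrome. Apart from Slc12a1 these genes are not limited to the thick limb. Kcnj1 is also known in the distal and connecting tubule and in principal cells, Bsnd in the thin ascending limb, distal tubule and intercalated cells, and Kcnj16 in the proximal and distal convoluted tubule.

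The sections held 25957128 to 44528078 UMIs over 10312 tissue spots, with medians of 8656 to 16162 UMIs per spot. The injury genes Havcr1 and Lcn2 served as a check of the labels and were higher in the ischemic sections by 9.64 (SE 0.28) and 8.78 (SE 0.27) on the log2 scale. Levels are given as CPM, counts scaled to a common sequencing depth after TMM normalisation. Differences are log2 fold changes from the quasi-likelihood test of edgeR, with p adjusted over all genes after Benjamini and Hochberg, and a gene was called at an adjusted p below 0.05. Much of the transcriptome differed between conditions: 29.7% of the tested genes were called lower and 31.0% higher in ischemic sections. Scaling by library size alone shifted the median log2 fold change of all genes from 0.04 to 0.31 and the split from 4737 higher and 4542 lower genes to 5750 higher and 2829 lower.

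The first comparison asked how the salt transport genes differed between ischemic and normal kidney as a whole. All 5 were lower in ischemic sections, and for each of them both ischemic sections lay below both normal sections, which held for 39.2% of all tested genes. The fall was steepest for Slc12a1 and shallowest for Kcnj16. A spot sums the RNA of its cells, so fewer cells of a type and less RNA per cell cannot be told apart.

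Slc12a1 (ENSMUSG00000027202) lies on the forward strand at chr2:125152505-125230002 of GRCm38. It stood at 428 and 526 CPM in the normal sections and at 50.3 and 51.2 CPM in the ischemic sections, from 15780, 14509, 1709 and 1467 UMIs. The level fell from 476.7 ± 69.3 to 50.8 ± 0.62 CPM (SD, n = 2), 9.39-fold lower, with a log2 fold change of -3.23 (SE 0.15, adjusted p = 4.26e-07, edgeR quasi-likelihood). The 2 ischemic sections were nearly equal, while the normal sections differed from each other by less than the gap between conditions. The overlapping antisense gene Gm14002 held 24 UMIs in all sections together.

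Kcnj1 (ENSMUSG00000041248, forward strand, chr9:32372493-32399197) was at 135 and 135 CPM in normal and 52.7 and 51.5 CPM in ischemic sections, and both pairs were tight. The log2 fold change was -1.37 (SE 0.10, adjusted p = 5.89e-06, edgeR), a 2.58-fold lower level. Bsnd (ENSMUSG00000025418, reverse strand, chr4:106483456-106492283) was at 25.6 and 30.7 CPM in normal and 6.48 and 6.84 CPM in ischemic sections. The groups were well separated, with a log2 fold change of -2.08 (SE 0.12, adjusted p = 1.43e-06, edgeR), a 4.22-fold lower level.

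Casr (ENSMUSG00000051980, reverse strand, chr16:36493696-36562141) was the scarcest of the 5 genes in UMIs, with 300 and 198 in normal sections against 70 and 55 in ischemic ones. Its level was 8.13 and 7.17 CPM in normal and 2.06 and 1.92 CPM in ischemic sections, without overlap. The log2 fold change was -1.94 (SE 0.18, adjusted p = 2.09e-05, edgeR), a 3.84-fold lower level.

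Kcnj16 (ENSMUSG00000051497, forward strand, chr11:110968033-111027968) was at 313 and 252 CPM in normal and 179.7 and 172 CPM in ischemic sections. The normal sections differed more from each other than the ischemic sections did, and the log2 fold change was -0.69 (SE 0.14, adjusted p = 0.00237, edgeR), a 1.61-fold lower level. This call was lost without ischemic section 1 (-0.70, adjusted p = 0.0571) and without ischemic section 2 (-0.64, adjusted p = 0.0833). The other members kept their calls when any 1 section was left out.

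**Figure D1:**
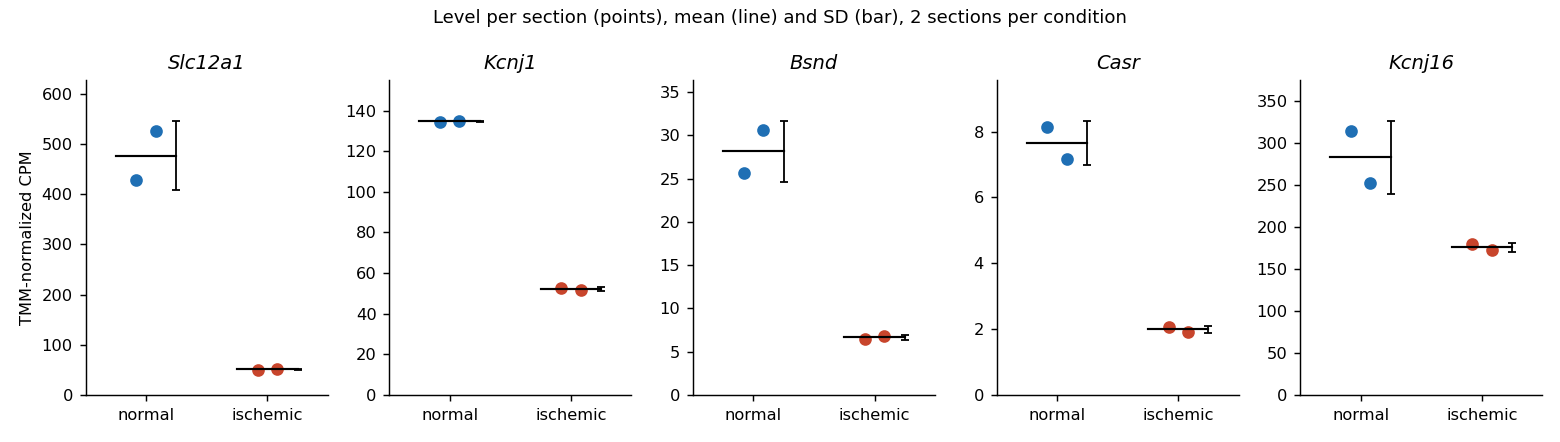
CPM after TMM normalisation (vertical axes, starting at 0, 1 scale per gene) of the 5 genes in each section (points), with the mean (line) and SD (bar) of the 2 normal and 2 ischemic sections. Every ischemic point lies below both normal points, with Slc12a1 at 428 and 526 against 50.3 and 51.2 CPM and Kcnj16 at 313 and 252 against 179.7 and 172 CPM.

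The tissue was checked with the markers of the thick limb and of neighbouring cell types. Of 8 thick limb markers 7 were lower and 1 was not called (Irx2, log2 fold change 0.02), and their summed level went from 4882 and 4704 CPM in normal to 2719 and 2763 CPM in ischemic sections. Umod, the most abundant thick limb transcript, was at 3691 and 3461 CPM in normal and 2495 and 2538 CPM in ischemic sections, with a log2 fold change of -0.51 (SE 0.18, adjusted p = 0.0365, edgeR). Egf, also made in this segment and in the distal convoluted tubule, had a log2 fold change of -6.40. Markers of other cells that hold some of the 5 genes moved as well. The distal convoluted tubule list had 2 of 3 genes lower (summed level 271 and 256 against 103 and 86.5 CPM) and the intercalated cell list 4 of 4 lower (276 and 285 against 197 and 174 CPM), while none of 4 principal cell markers was called (434 and 487 against 312 and 427 CPM). All 5 proximal tubule markers were lower, from 3565 and 2987 to 446 and 421 CPM. The 3 thin limb markers were higher, from 41.6 and 91.4 to 365 and 357 CPM, and all 4 injured tubule markers were higher, from 17.8 and 23.7 to 4303 and 4802 CPM. Of the macula densa markers Ptgs2 was higher (log2 fold change 4.65) and Nos1, at 3 to 10 UMIs per section, was not tested. The endothelial list had 1 gene higher and 1 lower of 3, and the leukocyte list 1 higher and 1 lower of 4, with summed levels of 462 and 524 against 193 and 188 CPM. In normal sections most of this leukocyte sum was Cd74, at 403 and 445 CPM against 46.8 and 47.4 CPM in ischemic sections. S100a8 was higher, from 0.407 and 0.580 to 70.1 and 69.6 CPM, and Ptprc and Lyz2 were not called. No marker was at 0 in every section. The part of these cell types in the results for the 5 genes was not tested.

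Set against Umod within the same section, which needs no scaling, the 5 genes separated. Slc12a1 gave 116 and 152 UMIs per 1000 Umod UMIs in normal sections and 20.2 and 20.2 in ischemic sections. Kcnj1 gave 36.4 and 39.0 against 21.1 and 20.3, Bsnd 6.95 and 8.86 against 2.60 and 2.70, and Casr 2.20 and 2.07 against 0.826 and 0.756. Kcnj16 gave 84.9 and 72.9 against 72.0 and 67.8. Over whole sections the ischemic ratios of Slc12a1, Kcnj1, Bsnd and Casr thus lay well below the normal ratios and those of Kcnj16 just below them. Within zones, described further on, the Kcnj16 ratio was above normal in the ischemic cortex (220.1 and 226 against 267 and 277) and inner stripe (25.9 and 20.8 against 37.6 and 37.9) and below it in the outer stripe (58.0 and 53.8 against 47.0 and 49.4). Umod itself was called lower in the ischemic cortex, inner stripe and outer stripe, with adjusted p of 0.000148, 0.000785 and 5.20e-05 (edgeR). Its log2 fold change lay below that of Kcnj16 in the cortex and inner stripe and above it in the outer stripe. The higher Kcnj16 ratios in the cortex and inner stripe thus do not show a rise of Kcnj16. These ratios are given as a description.

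The promoters of the genes were searched for 3 short motifs, as a description of their sequence. The RefSeq promoters used here (GRCm38.p6) held 1 start each for Slc12a1, Kcnj1 and Casr and 4 for Kcnj16, and the promoter of Bsnd was not analysed here. Each promoter ran from 250 bases before to 50 bases after the start, and both strands were searched for a partial HNF1 site (GTTAAT, a single arm of the palindrome that HNF1 binds), an estrogen-related receptor (ERR) site (AAGGTCA) and an AP-1 site (TGANTCA). Of all 32851 promoters, 7.10% held the first motif, 4.72% the second and 7.81% the third. The first start of Kcnj16 held 1 partial HNF1 site and 1 ERR site, and the other 3 starts of Kcnj16 and the starts of Slc12a1, Kcnj1 and Casr held none of the 3. For the genes with the largest and smallest fall, the stretches that lie before both the RefSeq and the GENCODE start are printed 5′ to 3′, with matches in capitals. They are chr2:125152350-125152504 for Slc12a1 and chr11:110967783-110968032 for the first start of Kcnj16, both on the forward strand. The GENCODE start of Slc12a1 lies upstream of its RefSeq start, so its printed stretch has 155 bases and is shorter than the stretch searched.
Slc12a1: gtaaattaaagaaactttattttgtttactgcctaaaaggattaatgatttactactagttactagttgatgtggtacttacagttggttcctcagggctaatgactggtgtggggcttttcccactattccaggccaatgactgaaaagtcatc
Kcnj16: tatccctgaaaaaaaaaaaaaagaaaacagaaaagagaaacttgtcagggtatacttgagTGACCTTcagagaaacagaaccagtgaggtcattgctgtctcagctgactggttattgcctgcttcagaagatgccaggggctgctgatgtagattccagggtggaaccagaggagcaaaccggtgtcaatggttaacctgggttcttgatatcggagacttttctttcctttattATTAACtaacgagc
In Kcnj16 the first capitals are the ERR site and the second the partial HNF1 site, both read on the reverse strand. The counts came from the ends of transcripts and do not show which start was used, and a match of letters is not evidence of binding.

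The next question was where in the kidney the genes were expressed and where they fell. Spots were assigned to 5 zones (cortex, outer stripe, inner stripe, inner medulla and pelvis) by marker genes, read over the spot and its up to 6 neighbours. None of the 5 genes served as a marker, and the inner stripe was called from Umod, Cldn10 and Ptger3. Cortex made up 44.8% and 42.9% of spots in normal sections against 40.0% and 36.6% in ischemic ones, and inner stripe made up 14.1% and 13.5% against 19.0% and 21.2%. Zones other than the cortex are uncertain. When neighbours were left out, 54.6% to 61.3% of inner stripe spots and 61.7% to 72.0% of inner medulla spots kept their zone. Of pelvis spots 66.4% and 63.0% did so in the normal sections but 28.3% and 28.5% in the ischemic sections. In the ischemic sections the inner medulla spots lay among those of the inner stripe. Several zone markers themselves differed between conditions over whole sections. The log2 fold change was -5.32 for Slc7a13 (outer stripe), -3.62 for Slc34a1 (cortex), -1.72 for Cldn10 (inner stripe) and 2.73 for Slc14a2 (inner medulla). Zones of the same name may therefore not hold the same tissue in the 2 conditions.

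In normal sections the zones did not bear out a common thick limb pattern for all 5 genes. Slc12a1, Kcnj1 and Casr were highest in the inner stripe, Bsnd in the inner medulla and pelvis, and Kcnj16 in the cortex. Over the normal sections 4 of the 5 genes differed between inner stripe and cortex by the test within sections, against 28.8% of all genes in either direction. The test took the section as a block. The inner stripe was drawn from thick limb markers, so a higher level of thick limb genes there was partly built in. The test therefore does not locate such genes independently.

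Slc12a1 was highest in the inner stripe, as drawn from thick limb markers. In normal sections it stood at 1388 and 1947 CPM in the inner stripe, at 580.2 and 649 CPM in the outer stripe and at 183 and 176 CPM in the cortex. The inner medulla (259 and 710.3 CPM) and pelvis (139 and 342 CPM) varied widely between the sections and overlapped with their neighbours in this order, whereas the inner stripe lay above every other zone. Inner stripe against cortex gave a log2 difference of 3.16 (SE 0.25, adjusted p = 5.70e-09, edgeR). The inner stripe held 40.7% and 40.3% of all Slc12a1 UMIs of the normal sections.

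Kcnj1 was at 241 and 298 CPM in the normal inner stripe, at 167 and 160.1 CPM in the cortex and at 113 and 115 CPM in the outer stripe. It thus dipped in the outer stripe, a zone of proximal straight tubules. After TMM normalisation each zone in the order inner stripe, cortex, outer stripe, inner medulla (55.0 and 106 CPM) and pelvis (22.9 and 50.5 CPM) lay above the next without overlap. As plain shares of UMIs, the outer stripe (1175 of 15733926 and 895 of 9968493) and the inner medulla (58 of 1119129 and 173 of 1363882) overlapped. The log2 difference of inner stripe against cortex was 0.70 (SE 0.14, adjusted p = 0.000727, edgeR). The cortex held 52.1% and 44.9% of its UMIs.

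Casr was at 13.2 and 15.7 CPM in the normal inner stripe, 10.7 and 11.0 CPM in the outer stripe and 7.76 and 5.37 CPM in the cortex, an order without overlap between neighbours. The log2 difference of inner stripe against cortex was 1.10 (SE 0.22, adjusted p = 0.000848, edgeR), and it was not past the threshold once spots were thinned to 2000 UMIs (0.94, adjusted p = 0.191). In the inner medulla and pelvis the gene rested on 1 to 7 UMIs per section.

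Bsnd was highest outside the thick limb zones. Its normal levels were 44.6 and 102 CPM in the inner medulla, 54.8 and 43.1 CPM in the pelvis, 34.4 and 40.3 CPM in the inner stripe, 30.5 and 30.8 CPM in the cortex and 18.1 and 20.7 CPM in the outer stripe. Inner medulla and pelvis overlapped, and each later zone lay below the one before. The inner stripe did not differ from the cortex past the threshold (log2 difference 0.27, SE 0.20, adjusted p = 0.347, edgeR).

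Kcnj16 was highest in the cortex. In normal sections it went from 444 and 371 CPM in the cortex through 311 and 281 CPM in the outer stripe and 251 and 205 CPM in the inner stripe to 143 and 106 CPM in the inner medulla and 98.4 and 59.2 CPM in the pelvis. No neighbours in this order overlapped after TMM normalisation. As plain shares of UMIs, the outer stripe (3242 of 15733926 and 2195 of 9968493) and the inner stripe (1159 of 5579695 and 615 of 2735922) overlapped. The log2 difference of inner stripe against cortex was -0.84 (SE 0.11, adjusted p = 6.18e-06, edgeR). The cortex held 59.4% and 55.7% of its UMIs.

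**Figure D2:**
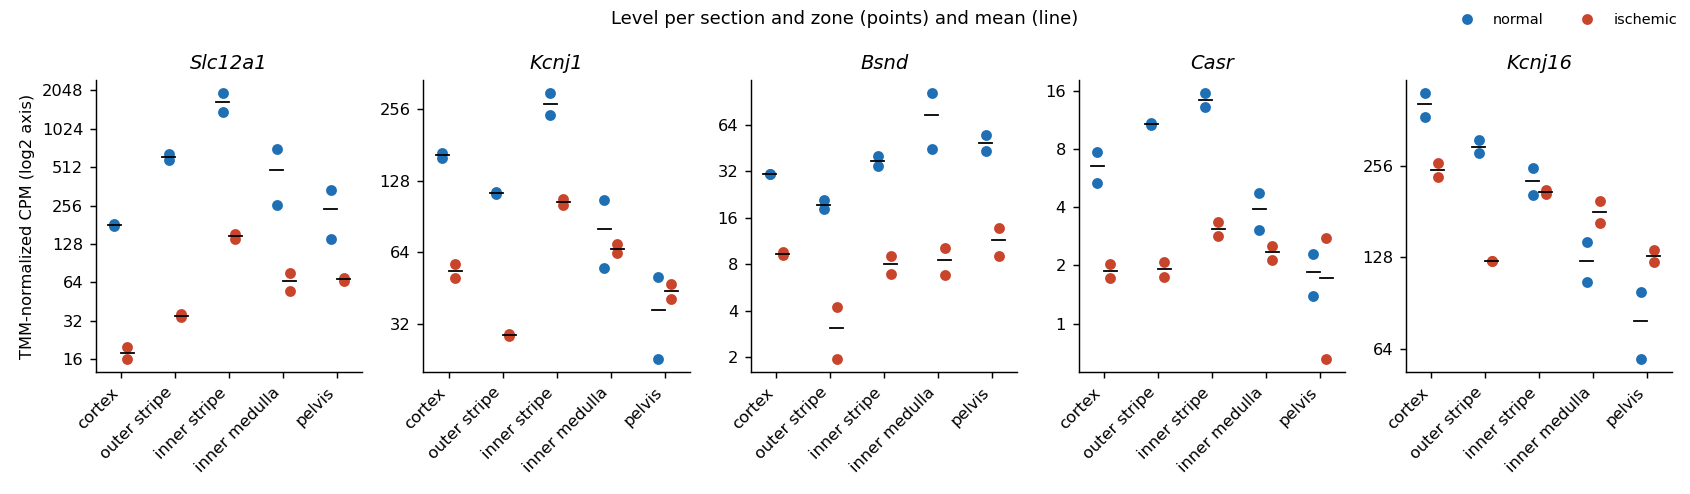
CPM after TMM normalisation (vertical log2 axes, 1 scale per gene) in the 5 zones of each section, with normal sections in blue, ischemic sections in red and the mean as a line. Slc12a1, Kcnj1 and Casr peak in the normal inner stripe, while Kcnj16 is highest in the normal cortex at 444 and 371 CPM and overlaps between conditions in the inner stripe.

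Correlations over single spots, each pooled with its neighbours, described the arrangement for selected pairs of genes. They are given without tests, since spots of a section share the library and depth. Slc12a1 and Umod had a Pearson r of 0.873 and 0.854 over 2616 and 2682 normal spots, one value per section, and of 0.732 and 0.696 over 2401 and 2613 ischemic spots. Kcnj16 and Slc12a3, the cotransporter of the distal convoluted tubule, had r of 0.434 and 0.356 in normal sections against 0.310 and 0.176 in ischemic ones. Kcnj1 and Umod had r of 0.548 and 0.672 in normal sections against 0.358 and 0.443 in ischemic ones. Kcnj1 and the intercalated cell gene Atp6v1g3 had r of 0.494 and 0.416 in normal sections against 0.271 and 0.355 in ischemic ones, and Bsnd and the principal cell water channel Aqp2 had r of 0.335 and 0.373 in normal sections against 0.173 and 0.214 in ischemic ones. Slc12a1 and Bsnd, at 0.0318 and 0.0490 in the normal sections, hardly varied together from spot to spot. Some other pairs differed in sign between conditions. Kcnj16 and Aqp2 had r of -0.423 and -0.290 in normal sections against 0.104 and 0.325 in ischemic ones. Kcnj1 and Aqp2 had r of -0.241 and -0.0764 against 0.324 and 0.369, and Bsnd and Kcnj16 of -0.0427 and -0.106 against 0.214 and 0.189.

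**Figure D3:**
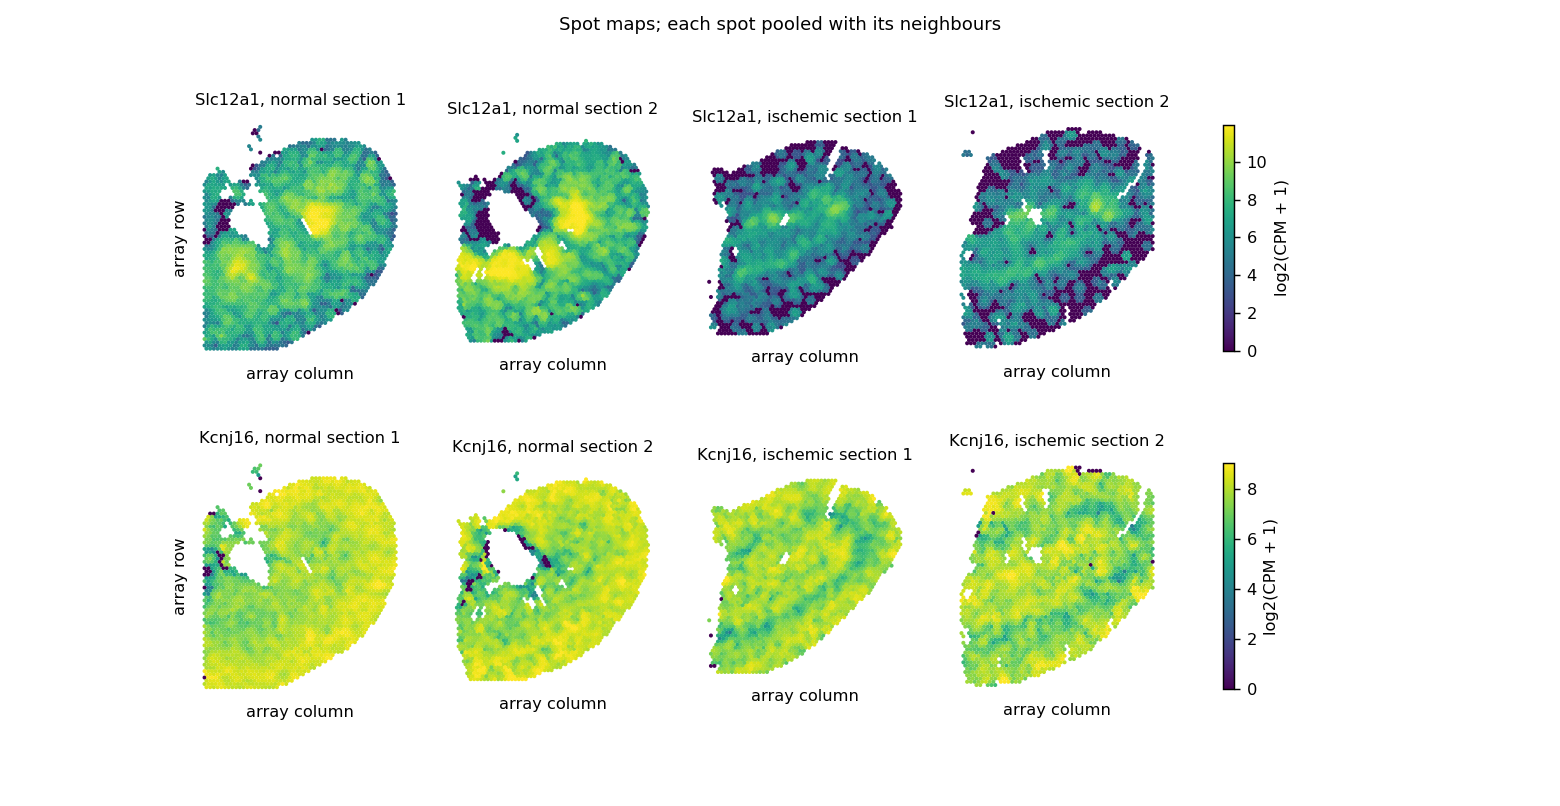
Spot maps of the 4 sections by array column and row, coloured by log2(CPM + 1) of Slc12a1 (top) and Kcnj16 (bottom), each spot pooled with its neighbours. Slc12a1 is brightest in the medulla of the normal sections, where the inner stripe reached 1388 and 1947 CPM, and dim over the ischemic sections, while Kcnj16 spreads over cortex and medulla in both.

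Between conditions, all 5 genes were lower in the ischemic cortex, where 19.9% of all genes were called lower. All 5 were also lower in the outer stripe, where 29.5% of genes were. In the inner stripe 4 of 5 were lower, against 25.7% of all genes, and in the inner medulla 2 were lower and 1 higher, against 34.3% of genes called in either direction. These tests pooled the spread over zones and treated the zones of a section as separate samples. The outer stripe gave the lowest value for Slc12a1, Kcnj1, Casr and Kcnj16, but differences between zones were tested only for inner stripe against cortex.

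For Slc12a1 the ischemic levels were 19.9 and 16.1 CPM in the cortex, 36.1 and 34.1 CPM in the outer stripe and 154 and 139 CPM in the inner stripe. With 54.8 and 75.7 CPM in the inner medulla and 69.5 and 65.6 CPM in the pelvis, both ischemic sections lay below both normal sections in every zone. The log2 fold changes were -3.31 (SE 0.38) in cortex, -4.13 (SE 0.39) in outer stripe, -3.50 (SE 0.38) in inner stripe and -2.90 (SE 0.38) in the inner medulla, with adjusted p of 1.30e-06, 3.68e-08, 3.00e-07 and 9.87e-06 (edgeR). The share of Slc12a1 UMIs held by the inner stripe was 51.0% and 50.3% in the ischemic sections, and inner stripe against cortex still differed by 3.02 (SE 0.27, adjusted p = 1.71e-08, edgeR).

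The fall of Slc12a1 was also seen at equal depth per spot. With each spot thinned to 2000 UMIs, 75.4% (95% Clopper-Pearson interval 70.7 to 79.7) and 80.6% (76.1 to 84.7) of inner stripe spots of the normal sections held a Slc12a1 UMI, against 25.2% (21.2 to 29.4) and 25.3% (21.7 to 29.1) in the ischemic sections. In the pelvis, whose urothelium should lack the gene, the shares were 20.9% (13.9 to 29.4) and 28.8% (21.1 to 37.6) in normal sections against 13.9% (7.79 to 22.2) and 12.6% (7.38 to 19.7) in ischemic ones. Ischemic inner stripe shares thus lay above the ischemic pelvis but near the normal pelvis, and the pelvis zone itself is uncertain, above all in the ischemic sections. Without thinning the inner stripe shares were 96.2% and 90.6% against 64.6% and 56.2%. The intervals cover counting error only.

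Kcnj1 fell, with log2 fold changes of -1.61 (SE 0.22) in cortex, -1.98 (SE 0.23) in outer stripe and -1.37 (SE 0.22) in inner stripe, with adjusted p of 8.51e-06, 4.82e-07 and 3.80e-05 (edgeR). Its ischemic levels were 57.4 and 49.8 CPM in the cortex, 28.7 and 29.0 CPM in the outer stripe and 102 and 107 CPM in the inner stripe. The inner medulla, at 69.4 and 63.4 CPM, lay between the normal sections and was not called (-0.32, SE 0.25, adjusted p = 0.363). It was called lower without normal section 1 (-0.62, adjusted p = 0.00238) and with zones drawn without neighbours (-1.16, adjusted p = 0.000157). In ischemic sections the inner stripe was 0.96 (SE 0.15, adjusted p = 2.85e-05, edgeR) above the cortex on the log2 scale, a call lost without ischemic section 2 (0.81, adjusted p = 0.0537).

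Bsnd in the ischemic inner medulla was at 6.80 and 10.1 CPM, against 44.6 and 102 CPM in the normal sections, with a log2 fold change of -3.18 (SE 0.34, adjusted p = 9.26e-07, edgeR). The inner medulla held 5.08% and 8.13% of spots in the normal sections against 10.7% and 11.3% in the ischemic sections. The part of zone placement in this fall of Bsnd was not tested. The log2 fold changes were -1.71 (SE 0.24) in cortex, -2.60 (SE 0.31) in outer stripe and -2.21 (SE 0.30) in inner stripe, with adjusted p of 1.33e-05, 8.33e-07 and 4.62e-06. The ischemic levels ran from 1.95 CPM in the outer stripe of section 2 to 13.8 CPM in its pelvis, on 13 to 108 UMIs each.

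Casr fell, with log2 fold changes of -1.80 (SE 0.26) in cortex, -2.50 (SE 0.27) in outer stripe and -2.19 (SE 0.28) in inner stripe, with adjusted p of 2.21e-05, 1.76e-07 and 3.18e-06 (edgeR). The ischemic levels there were 2.04 and 1.72, 1.75 and 2.07, and 3.37 and 2.83 CPM, on 15 to 24 UMIs per section and zone. The cortical call was lost with thinned spots (-1.31, adjusted p = 0.0619). In the inner medulla the gene was not called (-0.67, SE 0.56, adjusted p = 0.419), but it was called lower with zones drawn without neighbours (-1.79, adjusted p = 0.000944).

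Kcnj16 fell by 0.72 on the log2 scale (SE 0.18, adjusted p = 0.00414, edgeR) in the cortex, from 444 and 371 to 262 and 234 CPM, and by 1.25 (SE 0.19, adjusted p = 1.20e-05) in the outer stripe, from 311 and 281 to 125 and 124 CPM. In the inner stripe the ischemic sections, at 207 and 213 CPM, lay between the normal sections at 251 and 205 CPM, and the difference of -0.12 (SE 0.19, adjusted p = 0.625) did not pass the threshold and turned to 0.22 with library size alone. In the inner medulla the gene was higher in ischemic sections, at 165 and 196 against 143 and 106 CPM, by 0.55 (SE 0.20, adjusted p = 0.0411). This rise turned to -0.18 when zones were drawn without neighbours and was past the threshold in 9 of 15 alternatives. Umod rose in the same zone, from 2362 and 2900 to 4187 and 4030 CPM (log2 fold change 0.64, SE 0.18, adjusted p = 0.00785), and the part of zone placement in the rise of Kcnj16 was not tested. The cortical call was lost without ischemic section 1 (-0.79, adjusted p = 0.0969) or ischemic section 2 (-0.63, adjusted p = 0.187).

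**Figure D4:**
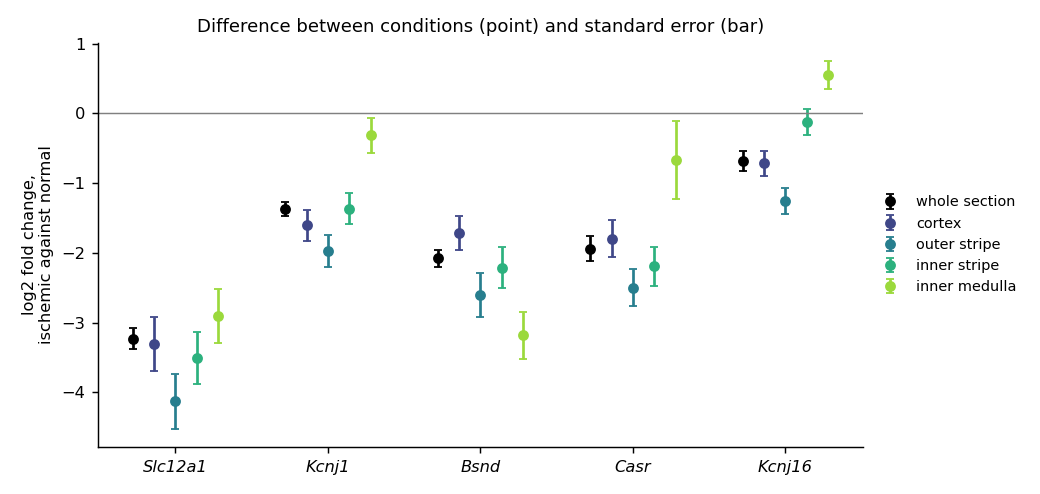
Log2 fold change of ischemic against normal sections (vertical axis; points) and its standard error (bars) for the 5 genes over whole sections and in 4 zones. Slc12a1 lies at -2.90 or lower throughout, whereas Kcnj16 runs from -1.25 in the outer stripe to 0.55 in the inner medulla.

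To ask whether the step from cortex to inner stripe changed with ischemia, the within-section differences were compared between conditions. Of the 5 genes only Kcnj16 was called, where 19.3% of all genes were called in either direction. Inner stripe against cortex gave -0.84 on the log2 scale in normal sections and -0.24 in ischemic sections (SE 0.11, adjusted p = 0.0697, and 0.12 with library size alone), a change of 0.60 (SE 0.15, adjusted p = 0.00827, edgeR). The call was lost without ischemic section 1 (0.70, adjusted p = 0.0989), without ischemic section 2 (0.50, adjusted p = 0.249) and with no section block (0.60, adjusted p = 0.161). The changes for Slc12a1 (-0.14, SE 0.36), Kcnj1 (0.26, SE 0.21), Bsnd (-0.51, SE 0.36) and Casr (-0.39, SE 0.42) had adjusted p between 0.381 and 0.847. Within the ischemic sections, where 50.1% of all genes differed between these zones, Slc12a1 and Kcnj1 were called and Bsnd (-0.23, adjusted p = 0.545, and 0.13 with library size alone), Casr (0.71, adjusted p = 0.0985) and Kcnj16 were not. Kcnj10, which encodes the channel subunit that pairs with Kcnj16 and was chosen after its values were seen, went from 14.9 and 22.3 CPM in the normal inner stripe to 4.61 and 6.05 CPM in the ischemic inner stripe, a log2 fold change of -1.77 (SE 0.24, adjusted p = 5.98e-06, edgeR). It was also called lower in the outer stripe. It was not called in the cortex (-0.31, SE 0.16, adjusted p = 0.132, edgeR) or inner medulla (-0.10, SE 0.46, adjusted p = 0.900, edgeR). Over whole sections Kcnj10 was lower in ischemic sections (-0.74, SE 0.11).

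The proteins that work with the 5 genes were described from a list of 11 transport partners, among them the sodium and proton exchanger Slc9a3 and the claudins that carry cations between cells. Of these, 9 were lower, 1 was higher and 1 was not called over whole sections, beside the 29.7% lower and 31.0% higher of all genes, with a median log2 fold change of -0.74 against 0.04 for all genes. The lowest were Cldn10 (425 and 424 against 129.6 and 128 CPM, log2 fold change -1.72, SE 0.12), a paracellular sodium pore, and Cldn16 (25.2 and 22.9 against 9.36 and 7.89 CPM, -1.48, SE 0.12), needed for magnesium and calcium uptake. The highest was Cldn14, which blocks that cation path and is known to be induced through Casr. It stood at 0.732 and 0.254 CPM in normal and 17.6 and 17.9 CPM in ischemic sections, on 27, 7, 598 and 512 UMIs, with a log2 fold change of 5.07 (SE 0.26, adjusted p = 6.84e-07, edgeR). With library size alone as scaling, 5 partners were lower, 1 higher and 5 not called.

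By zone, 6 partners were lower in the cortex, 10 in outer stripe, 9 in inner stripe and 5 in inner medulla (4, 7, 5 and 4 with library size alone), and 1 was higher in each. Of all genes 19.9%, 29.5%, 25.7% and 20.6% were lower in these zones, in the same order. The higher partner was Cldn14 in all 4 zones. In the ischemic sections it was highest in the outer stripe, at 30.4 and 30.5 CPM, and at 21.3 and 22.9 CPM in the cortex, whereas the inner stripe had 5.85 and 6.05 CPM and the inner medulla, without a UMI in either normal section, 5.37 and 7.97 CPM. Its level was thus higher in the outer stripe than in the inner stripe, the zone where Slc12a1, Kcnj1 and Casr had their highest ischemic levels.

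The second list held 13 regulators of thick limb transport, of which Wnk3, at 4 to 9 UMIs per section, was not tested. Of the remaining 12 genes, 8 were lower and 4 were higher, beside 29.7% and 31.0% of all genes, with a median log2 fold change of -0.46. The share of higher regulators was thus near that of all genes. The highest were Oxsr1 (14.3 and 13.5 against 26.6 and 27.0 CPM, log2 fold change 0.95, SE 0.10) and Stk39 (15.3 and 15.6 against 27.7 and 28.4 CPM, 0.87, SE 0.09), the kinases that phosphorylate and activate the Slc12a1 cotransporter. The lowest were Avpr2 (25.9 and 28.4 against 12.3 and 14.2 CPM, -1.03, SE 0.11), the vasopressin receptor, and Pth1r (512 and 372 against 234 and 212 CPM, -0.99, SE 0.17), the parathyroid hormone receptor, which the proximal tubule also expresses. Umod and Ptger3 belong to both this list and the thick limb markers, and the transport partners Cldn10 and Cldn16 are thick limb markers as well. By zone, 2 regulators were higher and 6 lower in the cortex, 4 and 6 in outer stripe, 4 and 6 in inner stripe and 4 and 3 in inner medulla. Of all genes 20.4%, 27.6%, 22.8% and 13.7% were higher and 19.9%, 29.5%, 25.7% and 20.6% lower, in this order of zones. With library size alone, 4 were higher, 4 lower and 4 not called over whole sections.

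**Figure D5:**
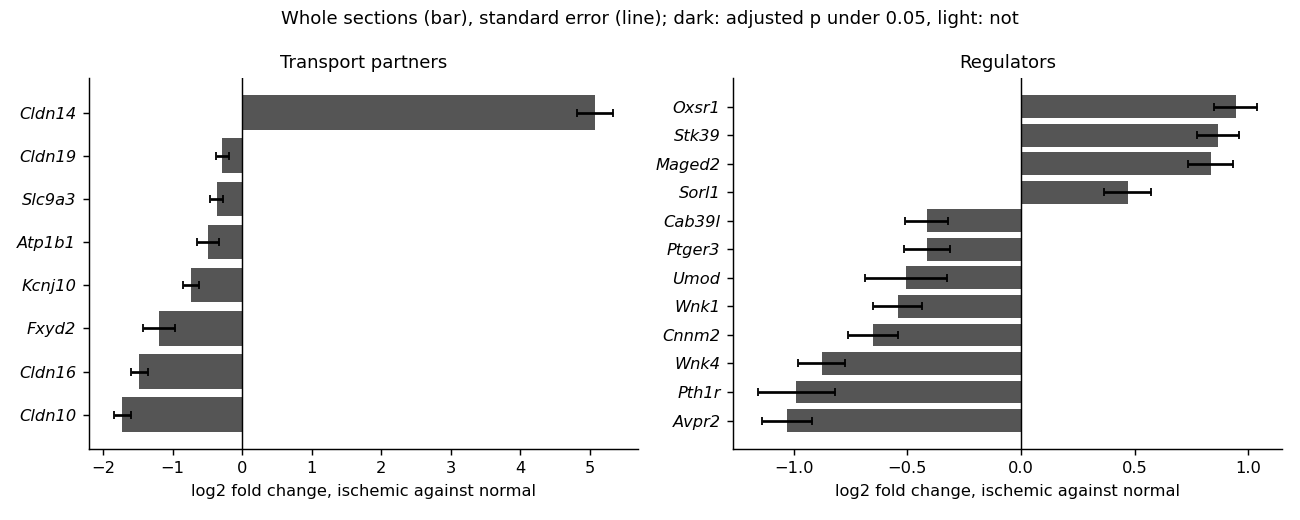
Log2 fold change of ischemic against normal whole sections (bars) with standard error (lines) for 8 of the 11 transport partners and for 12 regulators, dark where the adjusted p was below 0.05. Cldn14 at 5.07 is the 1 partner drawn above 0, and Oxsr1 at 0.95 and Stk39 at 0.87 lead the 4 higher regulators.

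For each of the 5 genes the most similar patterns were taken by Pearson r of log2(CPM + 1) over the 20 sums of 4 sections and 5 zones, among 14249 genes. These values are a description, since sums of a section share its library and the difference between conditions enters every r. Slc12a1 was closest to Gpx6 (r = 0.988), Ppp1r1b (0.982), Tmem207 (0.967), Wfdc15b (0.967) and Mok (0.956). Kcnj1 was closest to Stard8 (0.966), Efhd1 (0.950), Cd300lg (0.949), Me3 (0.946) and Ppargc1a (0.940), the last a coactivator of mitochondrial genes. Bsnd was closest to Slc2a8 (0.951), Cbx7 (0.945), the thyroid hormone receptor Thra (0.942), C1s1 (0.938) and Cd59b (0.938). Casr was closest to the glucagon receptor Gcgr (0.947), Mturn (0.945), Gm11789 (0.933) and Kng2 (0.920). Kcnj16 was closest to Ncoa7 (0.939), the proton pump subunit Atp6ap1 (0.926), Ptges2 (0.922), the bile acid receptor Nr1h4 (0.918) and Nsun4 (0.906). No member was among the 5 closest genes of another. Among the members, Kcnj1 and Casr had the highest r (0.841), followed by Slc12a1 and Casr (0.792), while Slc12a1 and Kcnj16 had an r of 0.0961 and Bsnd and Kcnj16 of -0.0680.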

How the data were processed

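Visium counts of 4 left kidney sections, 2 normal and 2 ischemic, were analysed; conditions came from the sample labels. The authors ran Space Ranger 1.3.0, per the file headers, and deposited UMI counts of genes in spots, raw and without normalization. The labels name the build mm10. Counts were summed over the tissue spots of a section, or of each zone holding 20 spots or more, and tested by edgeR 4.0.16 in R 4.3.3 (quasi-likelihood test after TMM and filterByExpr, Benjamini-Hochberg threshold 0.05). Ischemic against normal had no block, and inner stripe against cortex had the section as a block.

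Zones were drawn by the marker scores of each spot and its up to 6 neighbours, as log2(CPM + 1) averaged over the genes of a list and standardised within the section, with the highest score deciding. The cortex was marked by Slc12a3, Slc22a6, Slc22a8, Slc34a1, Slc5a12 and Slc5a2, the outer stripe by Atp11a, Cyp7b1, Serpina1f, Slc22a13 and Slc7a13, the inner stripe by Cldn10, Ptger3 and Umod, and the inner medulla by Akr1b3, Aqp2, Cryab, Fxyd4 and Slc14a2. Pelvis spots needed at least 10 counts of urothelial genes and a rank in the top 5%. Gene positions came from GENCODE M21, matched by identifier.

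The members and lists were chosen with earlier results of these data known. Genes named were the 5 members, at most 2 with the lowest and 2 with the highest fold change of each list, the 5 genes most like each member, and Havcr1 and Lcn2. A few genes that this rule would name are not reported here. Further genes named are marker genes or are said to be chosen after their values were seen. Alternatives were DESeq2 1.42.0, other scalings, no filter, each section left out, blocks, other zone rules, no mitochondrial genes and spots thinned to 2000 UMIs. The replicate numbers of the labels pair nothing. On simulated counts with 200 changed genes edgeR recovered 196 with 4 false calls for whole sections (15085 genes) and 180 with 13 false calls for the change of inner stripe against cortex (13499 genes). The simulated libraries were drawn independently from a common profile at a fixed spread, without section effects. Far fewer genes changed in them than were called here, so these counts do not measure error rates in the real data.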

Additional observations from a re-analysis of the deposited data

Results flagged for a closer look

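The difference of Kcnj16 between inner stripe and cortex changed with ischemia by 0.60 on the log2 scale (SE 0.15, adjusted p = 0.00827, edgeR quasi-likelihood), and it was singled out because this test of the difference between conditions passed the threshold. After TMM normalisation the level was lower in the inner stripe than in the cortex in 4 of 4 sections. With library size alone the ischemic difference turned to 0.12, so the order in the ischemic sections depends on the scaling. The gene was at 444 and 371 CPM in the cortex and 251 and 205 CPM in the inner stripe of the normal sections, and at 262 and 234 CPM and 207 and 213 CPM in the ischemic sections. The call held in 12 of 15 alternatives, at values from 0.45 to 0.76 over all of them.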

How the results depend on the processing

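Over whole sections, Slc12a1, Kcnj1, Bsnd and Casr kept their direction and call in all 11 alternatives, with log2 fold changes of -3.36 to -2.98, -1.41 to -1.10, -2.19 to -1.82 and -2.05 to -1.66, and Kcnj16 kept its direction (-0.86 to -0.40) and its call in 9. Of the alternative values of the 5 genes, 542 kept their direction and side of the threshold, 10 moved past it, 15 fell short of it and 13 reversed. Reversed values, of which none but that of Kcnj16 in the inner medulla had been called, were, without 1 section at a time, 0.27 for Kcnj1 in inner medulla (range -0.62 to 0.27), 0.091 for the change of Slc12a1 between zones (-0.35 to 0.091) and 0.054 for Kcnj16 in inner stripe (-0.26 to 0.054). With thinned spots they were 0.51 for Casr in inner medulla, -0.079 for the change of Kcnj1, -0.023 for Bsnd between normal inner stripe and cortex and 0.11 for Kcnj16 in inner stripe. With spots clear of zone boundaries they were 0.54 for Casr in the inner medulla and 0.070 for Kcnj16 in the inner stripe, with zones drawn without neighbours -0.18 for Kcnj16 in the inner medulla, and with library size alone 0.13 for Bsnd and 0.12 for Kcnj16 between ischemic inner stripe and cortex and 0.22 for Kcnj16 in the inner stripe. The cause was not tested.

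Thinning to 2000 UMIs, which leaves fewer counts, lowered the genes called from 5754 to 3099 in cortex, 8132 to 4693 in outer stripe, 6910 to 3787 in inner stripe, 4894 to 2091 in inner medulla, 2751 to 1032 for the change of inner stripe against cortex, and 7135 to 3898 and 4109 to 1825 for inner stripe against cortex in ischemic and normal sections. Without 1 section at a time these counts ran from 2592 to 7086 in the cortex, 4300 to 7538 in the inner stripe, 2550 to 4475 in the inner medulla, 1020 to 3525 for the change and 3904 to 8086 for inner stripe against cortex in ischemic sections, lowest without an ischemic section each time. Of the 5 genes, 0 to 2 were then called for the change and 1 to 3 between inner stripe and cortex in ischemic sections. With no section block 1674 genes and none (0) of the 5 were called for the change, Kcnj16 having the lowest adjusted p (0.161) among them. A replicate block by the numbers of the labels left 5 of 5 genes called over whole sections (10089 genes in all), 5 in cortex, 5 in outer stripe, 4 in inner stripe and 3 in inner medulla; the deviations of equally numbered sections correlated at 0.162. Library size alone gave 3561 higher and 1703 lower genes in the cortex, against 2913 and 2841, 5623 and 2473 in the outer stripe, against 3932 and 4200, and 4780 and 2400 in the inner stripe, against 3242 and 3668. Depth limits Casr, at 1 to 7 UMIs per section in the inner medulla and pelvis.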
